A study of Mus musculus with 2 samples.

Results

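The genes described here encode 10 integrin chains, 7 alpha chains (Itga4, Itga5, Itga6, Itgal, Itgam, Itgav and Itgax) and 3 beta chains (Itgb1, Itgb2 and Itgb5). They were chosen by name, as chains of the leukocyte beta-2, the beta-1 and the alpha-v integrins, and all 10 were among the 10402 gene symbols with values in the deposited table. RNA of peritoneal macrophages was sequenced in 1 ECM1-deficient library, titled KO-lps-, and 1 ECM1-sufficient library, titled WT-lps-. The cells came from the mouse peritoneal cavity 3 days after an elicitation that the labels call ThG, and both samples were left without further activation. The labels give no strain, age or sex, no number of mice per library, and no account of how the ECM1 deficiency was made. Because each genotype had 1 library, nothing below could be tested against the spread of replicates.

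An integrin is a receptor made of 1 alpha and 1 beta chain that spans the membrane and ties the actin cytoskeleton to the matrix or to another cell. Leukocytes are known for the beta-2 group, whose shared beta chain Itgb2 pairs with Itgal, Itgam or Itgax. Beta-1 integrins bind fibronectin, laminins and the adhesion molecule Vcam1, and alpha-v integrins bind ligands with an RGD motif, including the latent form of TGF-beta. ECM1, extracellular matrix protein 1, is a secreted glycoprotein, and in mice it has been described as a binding partner of alpha-v integrins.

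Values are FPKM, fragments scaled to transcript length and to the mapped total, which can be compared between genes because they are per length. The difference of a gene is its log2(FPKM + 1) in ECM1-deficient minus its log2(FPKM + 1) in ECM1-sufficient macrophages, and a difference of 1 in size is called 2-fold. Folds of single genes are plain ratios of FPKM. The ECM1-deficient library had the higher FPKM for most genes, by a median ratio of 1.73-fold over the 7329 genes that reached 1 FPKM in both libraries. Differences are given as deposited and, after that ratio was divided out, relative to the median gene.

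All 10 integrin chains had the higher FPKM in the ECM1-deficient library as deposited, as had 90.5% of the 9032 genes that reached 1 FPKM in either library. Of the 9 chains at that level, 5 were at least 2-fold higher and 0 lower, whereas 14.8% of all genes were at least 2-fold higher and 2.17% lower. The 5 were Itgb5, Itgax, Itgav, Itgb1 and Itgb2. Relative to the median gene 0 of the 9 were past 2-fold in either direction, where 2.45% of all genes were higher and 4.77% lower. On that scale 6 of the 9 lay above 0, beside 54.3% of all genes, and Itgam, Itga6 and Itga4 lay below it. The median difference of the 9 chains was 1.07 as deposited and 0.29 relative to the median gene, beside 0.61 and 0.03 over all genes. The tenth chain, Itgal, was under 1 FPKM in both libraries, and with it included the medians were 0.94 and 0.23. In a bulk sample, fewer cells of a type and less RNA per cell cannot be told apart.

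**Figure D1:**
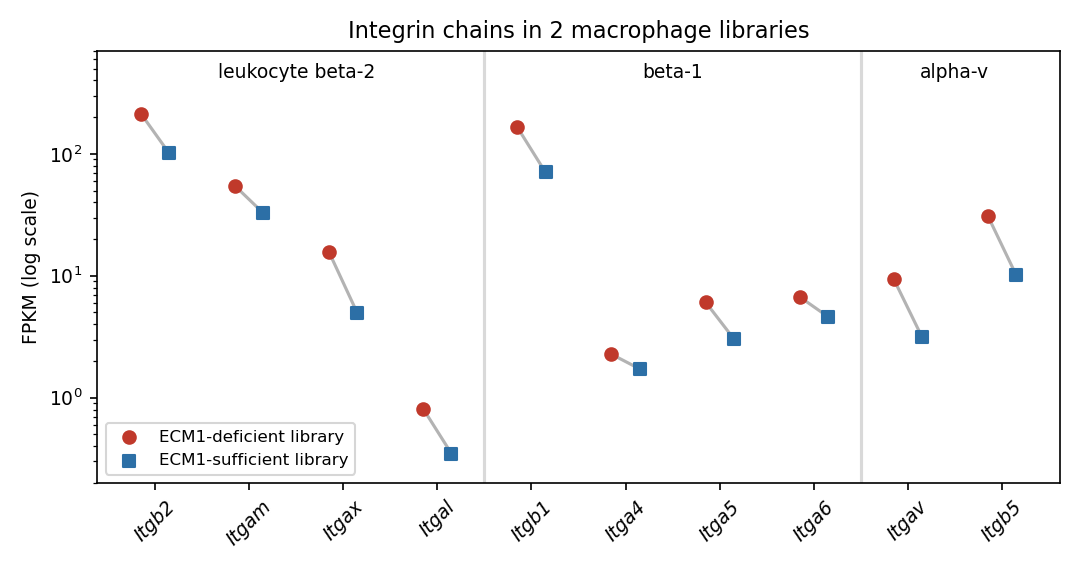
FPKM of the 10 integrin chains on a log scale, with circles for the ECM1-deficient library and squares for the ECM1-sufficient library, 1 library each and hence no error bars. Itgb2 and Itgb1 are the highest and Itgal the lowest in both libraries, and every circle lies above its square.

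The chains spanned a wide range of levels, with nearly the same order in both libraries. Itgb2 was the highest at 213 FPKM in the ECM1-deficient library and 101 FPKM in the ECM1-sufficient library, and Itgb1 was next. Then came Itgam, Itgb5 and Itgax in both libraries. Itgav stood above Itga6 in the ECM1-deficient library, and Itga6 above Itgav in the ECM1-sufficient library. Itga5, Itga4 and Itgal were the lowest in both. The 3 beta chains together held 81.1% of the summed FPKM of the 10 chains in the ECM1-deficient library and 78.3% in the ECM1-sufficient library. The 10 chains summed to 505 FPKM in the ECM1-deficient library and 232 FPKM in the ECM1-sufficient library. This 2.18-fold difference stands beside 1.37-fold for the summed FPKM of all listed genes and the median ratio of 1.73-fold. Itgb1 and Itgb2 alone made up 74.9% of the sum of the 10 chains in the ECM1-deficient library and 73.9% in the ECM1-sufficient library. As a share of all listed FPKM, the 10 chains took 0.269% of the ECM1-deficient library and 0.169% of the ECM1-sufficient library.

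Among the leukocyte integrins, Itgax was the chain with the larger difference and Itgam followed the median gene. Itgb2, the common beta chain, lies on chromosome 10 from 77530252 to 77565708 (GRCm38, as all positions here) and was 2.11-fold higher, a difference of 1.07 as deposited and 0.29 relative to the median gene. Itgam, the alpha chain of complement receptor 3 and a widely used myeloid surface marker, was at 54.5 FPKM in the ECM1-deficient library and 32.6 FPKM in the ECM1-sufficient library. That is 1.67-fold, a difference of 0.72, and -0.04 relative to the median gene. Itgax, the alpha chain of complement receptor 4 and a marker shared by dendritic cells and some macrophages, was at 15.6 FPKM in the ECM1-deficient library and 4.93 FPKM in the ECM1-sufficient library. It was 3.15-fold higher, with a difference of 1.48 that 271 of the 9032 genes exceeded and 0.78 relative to the median gene. Itgal, the alpha chain of the lymphocyte integrin LFA-1, was at 0.810 FPKM in the ECM1-deficient library and 0.348 FPKM in the ECM1-sufficient library, a difference of 0.42 and 0.15 relative to the median gene.

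The makeup of the beta-2 group can be read within each library, where no scaling between the libraries enters. Itgax took 21.9% of the summed FPKM of Itgal, Itgam and Itgax in the ECM1-deficient library and 13.0% in the ECM1-sufficient library. Itgam took 76.9% in the ECM1-deficient library and 86.1% in the ECM1-sufficient library, so it was the main alpha chain in both. Itgal took 1.14% in the ECM1-deficient library and 0.918% in the ECM1-sufficient library, an order that turned when 1 FPKM was added to each chain, with a difference of -0.85 points. The balance between Itgam and Itgax thus lay further toward Itgax in the ECM1-deficient library. Per Itgb2, Itgax amounted to 7.30% in the ECM1-deficient library and 4.88% in the ECM1-sufficient library, and Itgam to 25.6% in the ECM1-deficient library and 32.3% in the ECM1-sufficient library. The 3 alpha chains together came to 33.3% of the Itgb2 level in the ECM1-deficient library and 37.5% in the ECM1-sufficient library. Itgax was at 28.5% of the Itgam level in the ECM1-deficient library and 15.1% in the ECM1-sufficient library, a ratio 1.89 times as high.

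Itgam and Itgax are neighbours on chromosome 7, with Itgam from 128062640 to 128118491 and Itgax from 128129547 to 128150657, 11055 bases apart and on the same strand. Itgal lies on the same chromosome from 127296260 to 127335138. The promoters of the 2 neighbours, 250 bases before to 50 after the start in RefSeq on GRCm38.p6, are shown because their genes had unlike differences. Capitals mark GAGGAA, read as TTCCTC where it lies on the other strand, the core letters of sites for PU.1, a transcription factor that myeloid cells need and is known to act on the human ITGAM promoter.
Itgam chr7:128062390-128062689, plus strand: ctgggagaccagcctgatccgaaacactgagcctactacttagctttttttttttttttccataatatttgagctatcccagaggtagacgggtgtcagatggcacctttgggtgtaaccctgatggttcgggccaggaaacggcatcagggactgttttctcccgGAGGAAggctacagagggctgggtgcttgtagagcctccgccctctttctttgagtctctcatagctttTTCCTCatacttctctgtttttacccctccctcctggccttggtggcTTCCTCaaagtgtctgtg
Itgax chr7:128129300-128129599, plus strand: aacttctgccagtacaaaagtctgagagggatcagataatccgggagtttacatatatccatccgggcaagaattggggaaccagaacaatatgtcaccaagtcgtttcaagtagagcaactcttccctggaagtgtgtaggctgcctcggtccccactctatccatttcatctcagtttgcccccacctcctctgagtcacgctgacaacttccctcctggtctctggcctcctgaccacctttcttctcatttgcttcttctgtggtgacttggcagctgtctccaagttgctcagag
The Itgam window held 3 matches and the Itgax window 0, and 28.3% of the 32851 promoters in that table held at least 1. No inference about the factor follows from a match or its absence. The Itgax window held 1 match to TGANTCA, the AP-1 site, which 7.81% of promoters held. The gene of PU.1 itself, Spi1, was at 28.8 FPKM in the ECM1-deficient library and 6.73 FPKM in the ECM1-sufficient library, 4.28-fold more, which was 1.22 relative to the median gene.

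**Figure D2:**
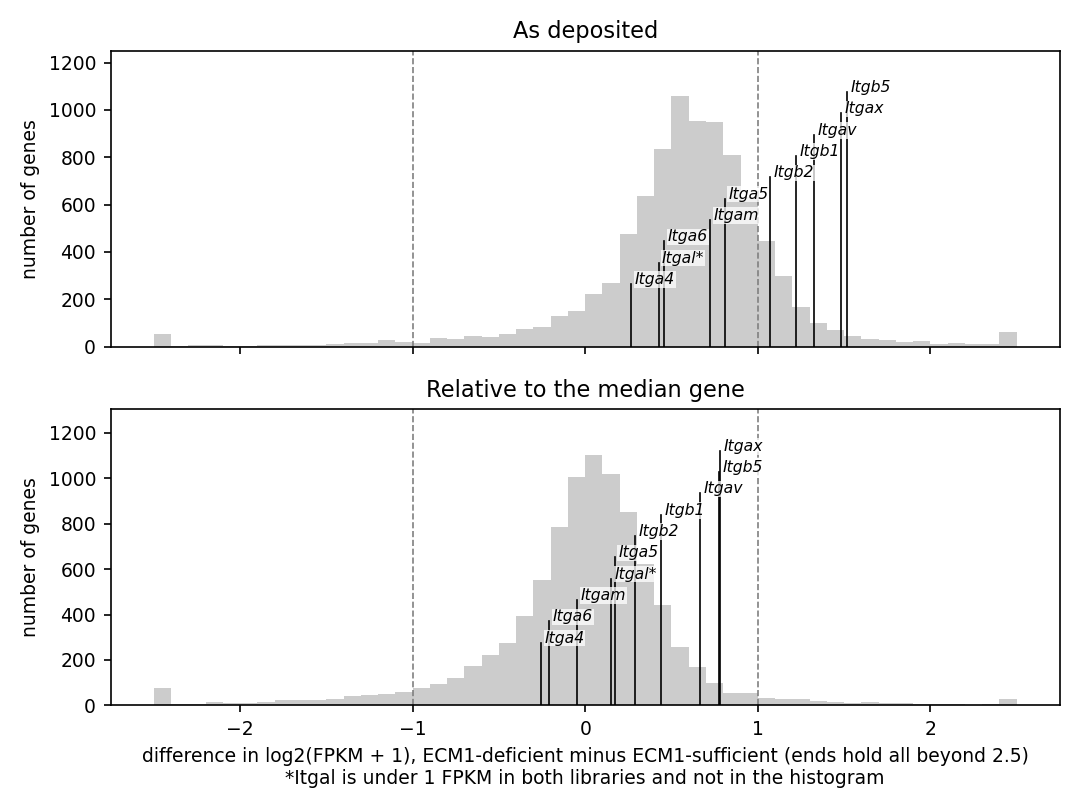
Differences in log2(FPKM + 1), ECM1-deficient minus ECM1-sufficient, of the integrin chains (black lines, whose heights only separate the names) over the histogram of 9032 genes (grey), as deposited (top) and relative to the median gene (bottom). Dashed lines mark 2-fold; 5 chains lie past it in the top panel and 0 in the bottom panel.

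In the beta-1 group the beta chain had a larger difference than the 3 alpha chains. Itgb1, on chromosome 8 from 128685654 to 128733200, was at 165 FPKM in the ECM1-deficient library and 70.3 FPKM in the ECM1-sufficient library. It was 2.35-fold higher, a difference of 1.22 and 0.44 relative to the median gene, and 559 genes had a larger one. Itga5, which with Itgb1 forms the classical fibronectin receptor and lies on chromosome 15 from 103344289 to 103366763, was at 6.09 FPKM in the ECM1-deficient library and 3.05 FPKM in the ECM1-sufficient library. The difference of 0.81 came to 0.17 relative to the median gene. Itga6, part of laminin receptors, lies on chromosome 2 from 71745616 to 71858416. It was at 6.72 FPKM in the ECM1-deficient library and 4.62 FPKM in the ECM1-sufficient library, 1.45-fold and -0.21 relative to the median gene. Itga4, which binds Vcam1 and fibronectin and lies on chromosome 2 from 79255426 to 79333123, was at 2.27 FPKM in the ECM1-deficient library and 1.72 FPKM in the ECM1-sufficient library. At 1.32-fold, a difference of 0.27 and -0.26 relative to the median gene, it had the lowest fold of the 10 chains.

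Itga4, Itga5 and Itga6 were lower per Itgb1 in the ECM1-deficient library, within a group in which Itgb1 exceeded each of them many times in both libraries. Itga4 was at 1.38% of the Itgb1 level in the ECM1-deficient library and 2.45% in the ECM1-sufficient library. Itga6 was at 4.07% in the ECM1-deficient library and 6.57% in the ECM1-sufficient library, and Itga5 at 3.69% in the ECM1-deficient library and 4.33% in the ECM1-sufficient library. The 3 together came to 9.13% of the Itgb1 level in the ECM1-deficient library and 13.4% in the ECM1-sufficient library. Among the 3, Itga5 took 40.4% in the ECM1-deficient library and 32.4% in the ECM1-sufficient library, and Itga6 took 44.6% in the ECM1-deficient library and 49.2% in the ECM1-sufficient library. Itga6 was the highest of the 3 in both.

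Both alpha-v members, which form the vitronectin receptor alpha-v beta-5, were about 3-fold higher and kept their ratio to each other. Itgb5, on chromosome 16 from 33829665 to 33949153, was at 31.0 FPKM in the ECM1-deficient library and 10.2 FPKM in the ECM1-sufficient library. It was 3.04-fold higher, a difference of 1.52 that 245 genes exceeded, and 0.77 relative to the median gene. Itgav, on chromosome 2 from 83724397 to 83806916, was at 9.41 FPKM in the ECM1-deficient library and 3.16 FPKM in the ECM1-sufficient library. It was 2.98-fold higher, a difference of 1.32 that 406 genes exceeded, and 0.67 relative to the median gene. Over all genes the 95th percentile was 0.68 relative to the median gene, so that Itgax and Itgb5 lay above it and Itgav just below. As deposited it was 1.28, and Itgax, Itgb5 and Itgav all lay above it. Itgav was at 30.3% of the Itgb5 level in the ECM1-deficient library and 31.0% in the ECM1-sufficient library. Set against the other large beta chain, Itgb5 was at 18.8% of the Itgb1 level in the ECM1-deficient library and 14.5% in the ECM1-sufficient library, and Itgav was at 5.70% of Itgb1 in the ECM1-deficient library and 4.49% in the ECM1-sufficient library.

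The promoter windows of these partner genes, from the same table, are shown because their genes had like differences.
Itgav chr2:83724147-83724446, plus strand: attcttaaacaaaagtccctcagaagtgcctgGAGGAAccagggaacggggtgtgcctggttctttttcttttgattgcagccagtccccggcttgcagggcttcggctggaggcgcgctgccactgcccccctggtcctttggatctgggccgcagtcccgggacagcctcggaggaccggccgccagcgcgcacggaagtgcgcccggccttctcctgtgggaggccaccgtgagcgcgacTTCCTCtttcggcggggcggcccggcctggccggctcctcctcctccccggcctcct
Itgb5 chr16:33829415-33829714, plus strand: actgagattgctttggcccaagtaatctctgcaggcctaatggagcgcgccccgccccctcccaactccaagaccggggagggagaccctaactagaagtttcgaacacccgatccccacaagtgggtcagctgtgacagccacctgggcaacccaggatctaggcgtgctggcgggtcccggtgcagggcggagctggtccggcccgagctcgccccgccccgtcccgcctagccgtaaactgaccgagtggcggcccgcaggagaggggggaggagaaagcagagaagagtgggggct
GAGGAA, again in capitals, had 2 matches in the Itgav window and 0 in the Itgb5 window. The GC box GGGCGG had 1 match in the Itgav window and 3 in the Itgb5 window, counted on both strands, and 35.7% of all promoters held at least 1. Of the 10 chains, 7 had an entry in the table, and 4 of these held GAGGAA, 6 held GGGCGG and 0 held TATAAA, the TATA box, which 13.6% of all promoters held. Itgax was the one without a GC box, and its share of G and C was just below the 50.3% of Itgam, beside 67.3% in Itgav and 65.7% in Itgb5.

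**Figure D3:**
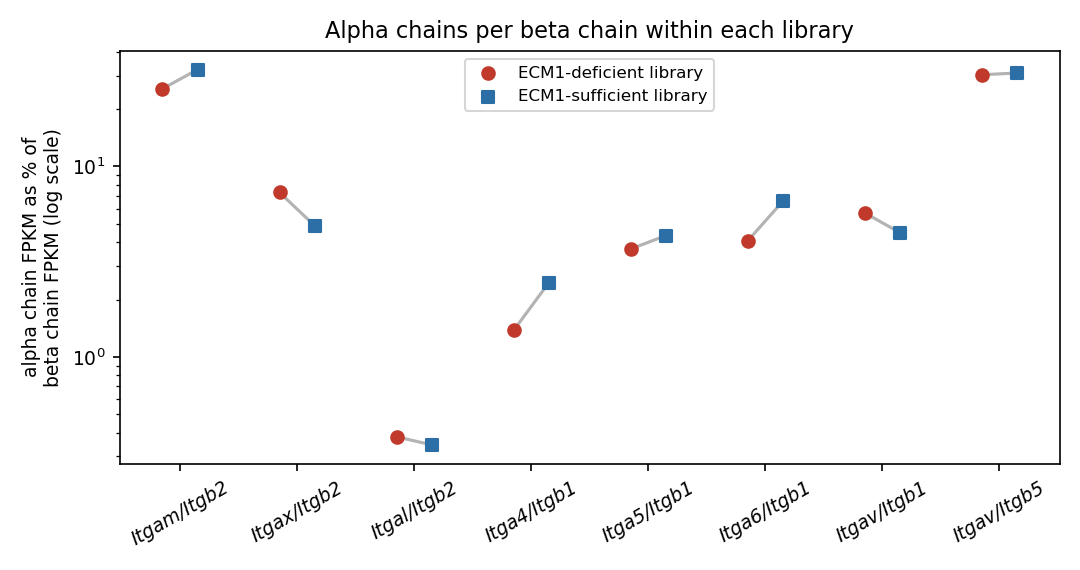
FPKM of each alpha chain as a percentage of the FPKM of a beta chain it pairs with, on a log scale, in the ECM1-deficient (circles) and ECM1-sufficient (squares) library. Itgax per Itgb2 and Itgav per Itgb1 are higher in the ECM1-deficient library, Itgam per Itgb2 and Itga4, Itga5 and Itga6 per Itgb1 are lower, and Itgav per Itgb5 is nearly level.

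Of 16 further integrin chains looked up, 3 had values, and the other 13 were not analysed here. Itgb3, the other well-known alpha-v partner and a platelet chain, was at 1.67 FPKM in the ECM1-deficient library and 1.07 FPKM in the ECM1-sufficient library, and -0.08 relative to the median gene. Itgb5 was 18.6 times the Itgb3 level in the ECM1-deficient library and 9.54 times in the ECM1-sufficient library. Itgb7, which pairs with Itga4 in gut-homing leukocytes, was at 6.43 FPKM in the ECM1-deficient library and 3.01 FPKM in the ECM1-sufficient library, and 0.25 relative to the median gene. Itga4 was at 35.3% of the Itgb7 level in the ECM1-deficient library and 57.2% in the ECM1-sufficient library. Itga9 was under 1 FPKM in both, at 0.876 in the ECM1-deficient library and 0.442 in the ECM1-sufficient library.

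Genes that act on integrins from inside the cell moved with the median gene for the most part. Of 19 genes of integrin activation, 15 were at 1 FPKM or more, with 12 within 2-fold. The other genes were 3 higher and 0 lower, beside 14.8% higher and 2.17% lower over all genes. The median of the 15 was 0.71, and 0.11 relative to the median gene. On that scale 0 passed 2-fold, beside 2.45% higher and 4.77% lower over all genes. Fermt3, the kindlin of blood cells that binds beta tails, was at 23.9 FPKM in the ECM1-deficient library and 9.35 FPKM in the ECM1-sufficient library, 0.53 relative to the median gene. Rapgef1, an exchange factor for Rap GTPases, was 3.25-fold higher and Fyb, a scaffold of that route, 2.45-fold. The Rap GTPase genes themselves were the most expressed of the list. Rap1b was at 111 FPKM in the ECM1-deficient library and 56.4 FPKM in the ECM1-sufficient library, and Rap1a at 74.7 FPKM in the ECM1-deficient library and 52.0 FPKM in the ECM1-sufficient library.

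Of 31 genes of the adhesion complex and its signalling, 28 were at 1 FPKM or more, with 23 within 2-fold. The other genes were 4 higher and 1 lower, beside 14.8% higher and 2.17% lower over all genes. The median of the 28 was 0.74, and 0.13 relative to the median gene. On that scale 0 were higher and 1 was lower, beside 2.45% higher and 4.77% lower over all genes. The parvins, which link the integrin-linked kinase to actin, went apart. Parvg, the parvin of blood cells, was at 5.87 FPKM in the ECM1-deficient library and 1.68 FPKM in the ECM1-sufficient library, 0.77 relative to the median gene. Parvb was at 0.912 FPKM in the ECM1-deficient library and 3.08 FPKM in the ECM1-sufficient library, -1.57 relative to the median gene and the one lower gene of the list. Actn1, an alpha-actinin that crosslinks actin at adhesions, was 3.21-fold higher and the Src family kinase gene Lyn 2.72-fold. Ilk, the integrin-linked kinase, was at 27.6 FPKM in the ECM1-deficient library and 12.2 FPKM in the ECM1-sufficient library, while Actn4 was 1.65-fold and -0.06 relative to the median gene.

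At the membrane, all 16 lateral partners of integrins were measured, with 12 within 2-fold. The other genes were 4 higher and 0 lower, beside 14.8% higher and 2.17% lower over all genes. The median of the 16 was 0.84, and 0.09 relative to the median gene. On that scale 0 passed 2-fold, beside 2.45% higher and 4.77% lower over all genes. The 4 higher partners as deposited included 3 tetraspanins, proteins that gather integrins into membrane domains. Cd53 was at 414 FPKM in the ECM1-deficient library and 122 FPKM in the ECM1-sufficient library, 0.97 relative to the median gene. Cd81 was 3.19-fold and Cd37 2.15-fold higher. The other one was Bsg, basigin, at 95.4 FPKM in the ECM1-deficient library and 28.0 FPKM in the ECM1-sufficient library, 0.96 relative to the median gene. Cd63, also a tetraspanin, was -0.43 and Lgals3, a lectin that binds integrin glycans, -0.53 on that scale.

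Of 15 genes of integrin traffic, 11 were measured at 1 FPKM or more, with 7 within 2-fold. The other genes were 4 higher and 0 lower, beside 14.8% higher and 2.17% lower over all genes. The median of the 11 was 0.72, and 0.09 relative to the median gene. On that scale 0 passed 2-fold, beside 2.45% higher and 4.77% lower over all genes. Rab5a, a GTPase of early endosomes, was 3.38-fold higher, and Rab21, which binds integrin alpha tails, was at 28.4 FPKM in the ECM1-deficient library and 10.6 FPKM in the ECM1-sufficient library. Ehd1, which acts in recycling, was 2.63-fold and the endocytic adaptor gene Numb 2.21-fold higher. Arf6, a GTPase of recycling, was -0.05 relative to the median gene, and Hax1, described to bind an integrin beta tail, was -0.89.

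Of 32 ligand genes, 14 were at 1 FPKM or more, with 10 within 2-fold. The other genes were 3 higher and 1 lower, beside 14.8% higher and 2.17% lower over all genes. The median of the 14 was 0.56, and 0.04 relative to the median gene. On that scale 1 was higher and 1 lower, beside 2.45% higher and 4.77% lower over all genes. The higher ligand gene on that scale was F11r, junctional adhesion molecule A, which binds the Itgal integrin. F11r was at 4.98 FPKM in the ECM1-deficient library and 0.485 FPKM in the ECM1-sufficient library. Mfge8, a bridge between apoptotic cells and alpha-v integrins, was at 57.8 FPKM in the ECM1-deficient library and 25.1 FPKM in the ECM1-sufficient library, 0.41 relative to the median gene. Thbs1, thrombospondin, was 2.35-fold higher. Spp1, the alpha-v ligand osteopontin, was the most expressed at 774 FPKM in the ECM1-deficient library and 481 FPKM in the ECM1-sufficient library, and its value relative to the median gene was -0.10.

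The alpha-v chain also bears on TGF-beta, because its integrins can release the growth factor from its latent complex. Of 14 genes of latent TGF-beta and its activation, 9 were at 1 FPKM or more, with 6 within 2-fold. The other genes were 1 higher and 2 lower, beside 14.8% higher and 2.17% lower over all genes. Relative to the median gene 0 of the 9 were higher and 3 lower, beside 2.45% higher and 4.77% lower over all genes. Ecm1, the gene whose deficiency defines the libraries, is counted among the 9 and among the lower genes on both scales. The 9 had a median of 0.28 as deposited, with 5 above 0 and 4 below. Once the median ratio was divided out, their median was -0.11, with 4 above 0 and 5 below. Thbs1 was the 1 higher gene. On the second scale Thbs1 came to 0.37, Tgfb3 to 0.26 and Mmp9 to 0.48. Tgfb1 was at 2.48 FPKM in the ECM1-deficient library and 7.003 FPKM in the ECM1-sufficient library, -1.82 relative to the median gene. Ecm1 itself was at 1.02 FPKM in the ECM1-deficient library and 5.63 FPKM in the ECM1-sufficient library, in the direction of the genotype labels. Mmp14, a membrane-bound protease that can release the growth factor, was -1.08 relative to the median gene. Nrros, which anchors latent TGF-beta on myeloid cells for alpha-v integrins, was at 8.38 FPKM in the ECM1-deficient library and 8.88 FPKM in the ECM1-sufficient library, and its value relative to the median gene was -0.78.

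**Figure D4:**
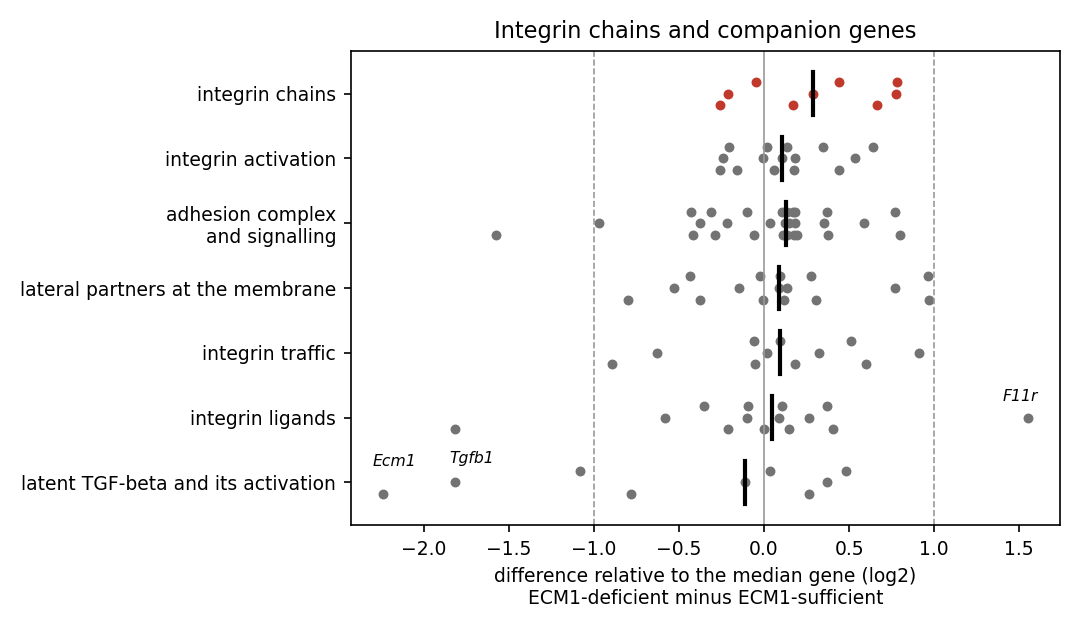
Differences relative to the median gene (log2, ECM1-deficient minus ECM1-sufficient) of the integrin chains and of 6 lists of companion genes at 1 FPKM or more, each point 1 gene and each black bar the median of its row. The integrin chains lie between -0.26 and 0.78, and Ecm1, Tgfb1 and F11r are among the genes past the dashed 2-fold lines.

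The cell type label was checked against markers. All 10 macrophage markers were listed, among them Tyrobp at 1399 FPKM in the ECM1-deficient library and 1386 FPKM in the ECM1-sufficient library, and Adgre1 at 64.7 FPKM in the ECM1-deficient library and 31.0 FPKM in the ECM1-sufficient library. These markers did not share a direction. As deposited, 5 were at least 2-fold higher, 1 was lower and 4 stayed within 2-fold, beside 14.8% higher and 2.17% lower over all genes. Once the median ratio was divided out, 6 lay above 0 and 4 below, beside 54.3% of all genes above 0. Tyrobp was at -0.77 on that scale. The lower marker was Lyz2, a macrophage lysozyme gene, with 5.44 FPKM in ECM1-deficient and 2774 FPKM in ECM1-sufficient cells. Fcgr1, a receptor for immunoglobulin G, was 1.28 relative to the median gene. Of the other cell types, 3 of 8 neutrophil markers were listed, summing to 8.52 FPKM in the ECM1-deficient library and 6.40 FPKM in the ECM1-sufficient library, with Csf3r and S100a8 the highest and Retnlg listed at 0 in the ECM1-sufficient library. Their directions were split. With the ECM1-deficient value first, S100a8 was lower, 3.69 against 4.98 FPKM. Csf3r was higher, 4.03 against 1.42 FPKM, and so was Retnlg, 0.81 against 0 FPKM. For eosinophils and mast cells 3 of 8 were listed, summing to 3.09 FPKM in the ECM1-deficient library and 1.47 FPKM in the ECM1-sufficient library, and their members differed in direction. Tpsb2, a mast cell protease gene, was at 1.31 FPKM in the ECM1-deficient library and listed at 0 in the ECM1-sufficient library, whereas the eosinophil gene Siglecf was at 1.07 FPKM in the ECM1-deficient library and 1.38 FPKM in the ECM1-sufficient library. The 3 of 6 listed B cell markers summed to 9.52 FPKM in the ECM1-deficient library and 3.67 FPKM in the ECM1-sufficient library, with Cd22 and Cd79a the highest. Relative to the median gene 2 of the 3 lay above 0 and 1 below.

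Of the T and NK cell markers 1 of 8 was listed, Il7r, at 107 FPKM in the ECM1-deficient library and 60.3 FPKM in the ECM1-sufficient library, and 0 of the T cell receptor and Cd3 genes. Of the dendritic cell markers, which matter here because dendritic cells carry Itgax, 1 of 8 was listed, Cd24a, at 1.60 FPKM in the ECM1-deficient library and 34.8 FPKM in the ECM1-sufficient library. The other 7 were not analysed here. Of the platelet markers 2 of 6 were listed, Itgb3 and Pf4, which summed to 45.6 FPKM in the ECM1-deficient library and 27.1 FPKM in the ECM1-sufficient library. The 8 of 11 mesothelial and fibroblast markers listed summed to 136 FPKM in the ECM1-deficient library and 72.2 FPKM in the ECM1-sufficient library. Relative to the median gene 4 of these lay above 0 and 4 below it, beside 54.3% of all genes above 0. Pdgfra was 1.15, Dcn 0.33 and Sparc 0.23 on that scale, whereas Col1a1 was -0.62, Wt1 -0.53 and Col1a2 -0.18. The part of these cells in the integrin differences was not tested.

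The authors' deposited gene ontology table was built on a list of 4944 genes. Of the genes it names, 4183 had FPKM, and each of these was higher in the ECM1-deficient library by at least 1.5-fold in FPKM + 1, a level that 47.5% of all 10402 symbols reached. The authors' deposited table names 7 of the 10 integrin chains, all but Itga4, Itga6 and Itgal. Its term for integrin-mediated signalling held 26 of 74 genes, among them those 7 chains and Itgb7. The authors' deposited table gives this term a fold enrichment of 1.66 and a false discovery rate of 0.00853. Both rest on the authors' own gene population and were not set against the 47.5% above. Itgam, at -0.04 relative to the median gene, was among the chains it names.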

How the data were processed

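Polyadenylated RNA of 2 samples was sequenced as strand-specific libraries, per the labels' protocols. The submitters' processing notes name HISAT2, StringTie 1.2.3 and mm9, but 8 of the 10 chains had the coordinates of GENCODE M21 on GRCm38 exactly, so positions are given as GRCm38. The authors deposited FPKM per gene, and beside them log2(FPKM + 1), a log2 fold change and its fold ratio. The deposited p-value and q-value columns held 1 throughout. The authors' deposited gene ontology table holds, per the file headers, counts of genes, a fold enrichment ratio, a p-value and its −log10, none of which was recomputed. Genes below about 0.500 FPKM in both libraries were left out of the deposited table, and 1 line of it was not analysed here. Read depth is unknown, so no counting interval is given. FPKM of rows with the same symbol were summed and 1 was added before the log2, which understates differences of low genes. For values relative to the median gene, each library was moved by the square root of the median ratio, ECM1-deficient down and ECM1-sufficient up. Named genes were the 10 chains, Ecm1, the other listed chains, and from each companion list up to 4 past 2-fold and the 2 highest by FPKM. For markers they were the 2 highest and any past 2-fold relative to the median gene. Adgre1, Retnlg, Col1a1, Col1a2 and Wt1 were added after their values were seen. Tgfb3 and Mmp9 were also named outside this rule. The chains and lists were chosen with earlier results of these data known. Python 3.11.15 with pandas 2.3.3 was used, and the calculation was tested on simulated data. Alternatives were pseudocounts, FPKM minimums, scalings, thresholds, exon number and the handling of repeated symbols. No annotated gene overlapping a chain had FPKM in the table.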

Additional observations from a re-analysis of the deposited data

How the results depend on the processing

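With 1 library per genotype no library could be left out, and no paired analysis was possible because each genotype has 1 sample. Scaling between the libraries decided the 2-fold calls. Of the integrin chains, 5 were at least 2-fold higher as deposited, 2 with FPKM rescaled to equal sums (Itgax and Itgb5), and 0 after division by the median ratio, after division by the 75th percentile of each library, or at a threshold of 4-fold. The count of lower chains was 0 under every alternative. The median difference of the chains was 1.07, and 0.82 with a pseudocount of 5, 0.94 with no FPKM minimum, 0.29 after division by the median ratio, 0.62 with equal sums and 0.31 after division by the 75th percentile. Itgav also fell below 2-fold with a pseudocount of 5, at 0.82, and by plain ratio, chosen after seeing the data, Itgal passed 2-fold, at 1.22. Relative to the median gene Itgam, Itga6 and Itga4 lay below 0, and with equal sums Itga4 did, at -0.03. None of the alternative values of the 5 called chains turned their direction. The 91 alternative values of single chains also cover the chains not called, of which Itgam, Itga6 and Itga4 turned below 0 as given above. Many of the 91 could not turn a direction. The FPKM minimums, the exon number and the handling of repeated symbols left each chain's own value unchanged.

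Over all genes, 1337 were higher and 196 lower. The higher genes numbered 2944 with a pseudocount of 0.1, 286 with one of 5, 3691 by plain ratio, 221 after division by the median ratio, 381 with equal sums, 229 after division by the 75th percentile, 4849 at 1.5-fold and 109 at 4-fold. The lower genes numbered 89 with a pseudocount of 5, 122 at a minimum of 5 FPKM, 431 after division by the median ratio, 296 with equal sums, 417 after division by the 75th percentile, 99 among genes with 3 or more exons, 356 by plain ratio, 332 at 1.5-fold and 72 at 4-fold. Over the 6 companion lists together, 18 of 90 genes were higher and 3 lower, beside 14.8% and 2.17% of all genes. The higher ones numbered 7 with a pseudocount of 5, 1 after division by the median ratio, 7 with equal sums, 1 after division by the 75th percentile, 31 by plain ratio, 55 at 1.5-fold and 1 at 4-fold, and 0 were lower with a pseudocount of 5 or at 4-fold.

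Ratios within a library do not depend on scaling, and weighting by transcript length left the log2 differences of these ratios the same by construction. Adding 1 FPKM before the ratio moved the log2 difference of Itgax per Itgb2 to 0.41, that of Itgal per Itgb2 to -0.64 against 0.14 without it, that of Itga4 per Itgb1 to -0.95, of Itga5 per Itgb1 to -0.41, of Itgav per Itgb1 to 0.10 and of Itgav per Itgb5 to -0.19. The shares of the beta-2 partners then differed by 7.90 points for Itgax, -7.06 points for Itgam and -0.85 points for Itgal.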
